A study of Mus musculus with 6 samples.

Results

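The 40 genes described here encode the machinery that copies DNA and that brings a cell into S phase, the stage of the cell cycle in which the genome is replicated. They were listed by name for this function, with earlier results of these arrays known. All 40 had a probe set annotated to them alone, among 18193 genes with such a probe set, and all 40 were among the 10501 genes tested. They had 90 single-gene probe sets, of which 75 passed the filter on low values, and each gene is represented by its brightest probe set unless another is named.

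Expression was measured on Affymetrix arrays in stromal cells cultured from mouse bone marrow, with 3 arrays of neural crest stem cells (NCSC) and 3 arrays of mesenchymal stem cells (MSC). NCSC descend from the neural crest, a migratory population of the embryo, and MSC are adherent stromal cells that can form bone, fat and cartilage. Both cell types came from females of 10 weeks on a C57BL/6 x SV129 background that carried wnt1/CRE-R26R-lacZ. This is a Cre recombinase under Wnt1 control and a lacZ reporter that Cre activates. The donors of the MSC thus carried the same constructs as those of the NCSC. The cells were untreated, and they had passed through at least 5 passages in Mesencult medium before clones were selected. The labels do not say how many clones or animals stand behind the 3 arrays of a cell type. All p-values below therefore measure the spread between these arrays, which may be technical, and a clone's own properties cannot be told apart from those of its cell type if a group is 1 clone.

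Replication starts at origins, where the origin recognition complex, Cdc6 and Cdt1 load the ring-shaped MCM helicase onto DNA in G1. The helicase is switched on at the start of S phase by Mcm10, Cdc45 and the GINS complex, after which polymerases, the sliding clamp and its loader copy both strands. Many of these genes are transcribed in late G1 and S phase under E2F factors, so their mRNA is high in dividing cultures and low in resting ones.

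Promoters of 4 of the genes are shown because they carry words that E2F factors are known to bind, and because these genes differ widely in the results that follow. Each is the 250 bases before the gene's RefSeq start (build GRCm38.p6), written on the gene's strand, with matches to TTTCCCGC, TTTCGCGC, TTTGCCGC or TTTGGCGC, on either strand, in capitals. Overlapping matches run together, as do the 2 matches in Mcm5 and 2 of the 3 in Mcm6, while the other match in Mcm6 stands apart. The regions are chr4:108579204-108579453 on the plus strand for Orc1, chr11:98907901-98908150 on the plus strand for Cdc6, chr8:75109259-75109508 on the plus strand for Mcm5 and chr1:128359706-128359955 on the minus strand for Mcm6.
Orc1: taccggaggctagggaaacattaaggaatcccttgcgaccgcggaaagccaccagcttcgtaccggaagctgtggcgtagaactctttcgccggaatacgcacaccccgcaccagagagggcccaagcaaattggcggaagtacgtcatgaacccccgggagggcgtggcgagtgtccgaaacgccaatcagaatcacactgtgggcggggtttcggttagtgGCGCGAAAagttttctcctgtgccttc
Cdc6: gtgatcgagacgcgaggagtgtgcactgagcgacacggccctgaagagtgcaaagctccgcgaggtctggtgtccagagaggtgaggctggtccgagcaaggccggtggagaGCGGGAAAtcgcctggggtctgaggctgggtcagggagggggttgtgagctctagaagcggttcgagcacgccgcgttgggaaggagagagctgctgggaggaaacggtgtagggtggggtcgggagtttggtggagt
Mcm5: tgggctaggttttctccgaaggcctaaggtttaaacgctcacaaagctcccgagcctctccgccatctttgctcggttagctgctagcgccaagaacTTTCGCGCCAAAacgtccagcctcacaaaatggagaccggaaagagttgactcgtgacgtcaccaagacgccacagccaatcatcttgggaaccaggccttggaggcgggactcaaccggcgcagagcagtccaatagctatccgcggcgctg
Mcm6: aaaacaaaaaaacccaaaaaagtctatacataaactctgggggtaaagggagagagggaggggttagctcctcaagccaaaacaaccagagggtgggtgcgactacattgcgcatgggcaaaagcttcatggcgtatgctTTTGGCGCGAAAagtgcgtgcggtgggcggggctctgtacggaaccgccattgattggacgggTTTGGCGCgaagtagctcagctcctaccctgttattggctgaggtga

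The 250 bases before a RefSeq start were at hand for 33 of the 40 genes. Of these genes, 8 held at least 1 such match, which is 24.2%, against 2.16% of 27025 mouse genes searched in the same way. A RefSeq start can lie within a gene, and the E2f1 window, which held no match, reads as protein-coding sequence. Besides those printed, the matches were in Mcm7, Pola1, Rfc3 and Uhrf1. The word CCAAT, bound by NF-Y, was present in 21 of the 33 promoters (63.6%) and in 37.5% of all genes. The word TTTGAA, found in the CHR element of many mitotic genes, was present in 3 of the 33 (9.09%) and in 18.3% of all genes. A match of letters is a description and not evidence of binding.

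Facts of the whole series that bear on these genes are few. The median log2 intensity of the 10501 tested genes lay between 9.74 and 9.82 on all 6 arrays, and 33.5% to 34.5% of probe sets stood at the lowest value, 2.12 on the log2 scale. Of the neural crest markers, 9 had a probe set, and the 8 that passed the filter were all higher in NCSC, with summed linear intensities of 35612 to 41909 on the NCSC arrays and 384 to 509.9 on the MSC arrays, while Ednrb stood at the lowest value on all 6 arrays. Of 8 tested surface markers of MSC, 4 were higher and 4 lower in NCSC, with sums of 63309 to 72336 on the NCSC arrays and 59759.8 to 67194 on the MSC arrays. The 8 thus differed between the cell types in both directions, and Thy1 stood at the lowest value on all 6 arrays. Among macrophage and blood cell markers 15 had a probe set and 4 passed the filter. Cd68, Lyz2 and Fcer1g were higher in NCSC and Csf1r was not called, and the list summed to 849 to 975 on the NCSC arrays and to 210.1 to 235 on the MSC arrays. Cd14, which did not pass the filter, ran the other way. It had 2.19, 2.16 and 2.19 in NCSC, against 4.63, 3.96 and 5.15 in MSC. Ptprc, Itgam and Aif1, which define leukocytes and macrophages, stood at the lowest value throughout, as did Pecam1 and Cdh5 of the endothelium, and none of the 8 endothelial markers passed 4 on the log2 scale on any array.

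The replication genes were on average lower in NCSC than in MSC, but NCSC 3 did not share this with NCSC 1 and NCSC 2. The median log2 intensity over the 40 genes was 10.11, 10.09 and 11.03 on NCSC 1, 2 and 3, against 11.04, 10.70 and 11.04 on MSC 1, 2 and 3. NCSC 3 thus stood at the level of MSC 1 and MSC 3, with NCSC 1 and NCSC 2 below it and MSC 2 in between. In bulk cultures, a smaller share of cells in S phase and less mRNA per cell cannot be told apart.

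**Figure D1:**
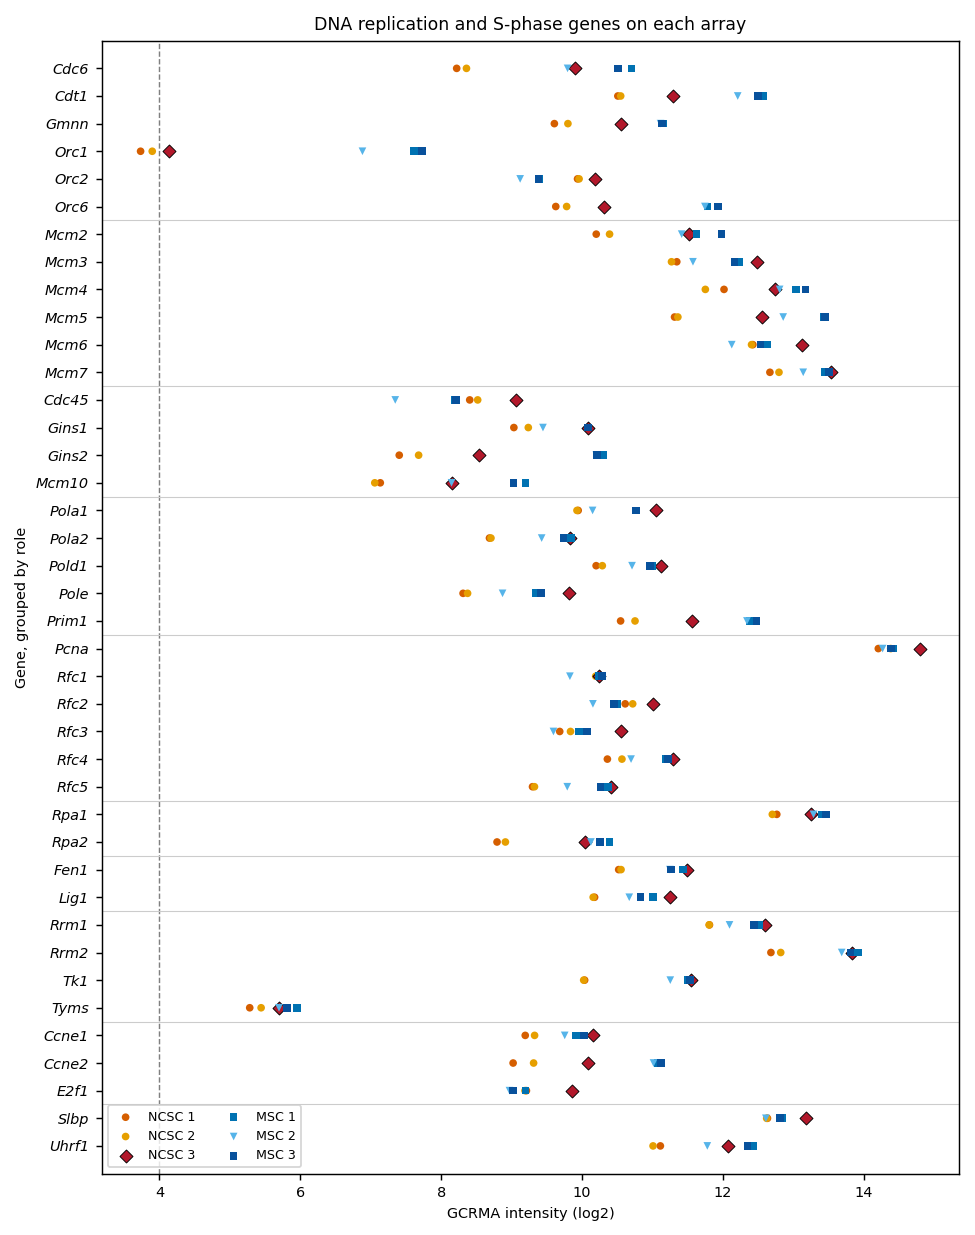
Log2 GCRMA intensity of the 40 replication genes on each array, with genes grouped by role between grey lines and the dashed line at 4, the limit for a value above background. NCSC 1 and NCSC 2 (orange and yellow circles) lie below all 3 MSC arrays (blue) in 31 genes, and NCSC 3 (red diamonds) lies above NCSC 1 and NCSC 2 in all 40.

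In the comparison of all 3 NCSC with all 3 MSC arrays, 13 of the 40 genes were lower and 2 were higher in NCSC at an adjusted p under 0.05, and 25 were not called. Over all tested genes 64.1% were called, 35% higher and 29.1% lower, so the count of lower replication genes is near the background while that of higher ones is below it. Of the 40 genes, 11 were called lower with a difference of at least 2-fold, against 14% of tested genes. The median difference of the 40 genes was -0.44 on the log2 scale, NCSC minus MSC, beside 0.056 for all tested genes, and 31 of the 40 differences were below 0. The count of lower genes changed with each array left out, most of all with NCSC 3. Without NCSC 3 the same test called 31 genes lower and 1 higher, with 68.4% of all genes called, 31.6% lower and 36.8% higher, and the median difference was -0.76. Without NCSC 1, NCSC 2, MSC 1 or MSC 3 it called 8 genes lower each time, where 25%, 25.5%, 24.3% and 24.3% of all genes were lower. Without MSC 2 it called 11 lower, with 28.7% of all genes lower.

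The 18 genes gained without NCSC 3 were all lower in NCSC 1 and 2, and Rfc2 was the 1 call lost. The standard errors differed likewise: with all arrays their median was 0.264 over the 40 genes, beside 0.125 for all tested genes. Without NCSC 3 it was 0.132 over the 40 genes. The standard deviation between replicates had a median of 0.51 among NCSC and 0.19 among MSC arrays for the 40 genes, beside 0.152 and 0.119 for all tested genes. For 14 of the 40 genes the 95% interval of the difference lay within 2-fold either way, against 55.3% of tested genes.

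**Figure D2:**
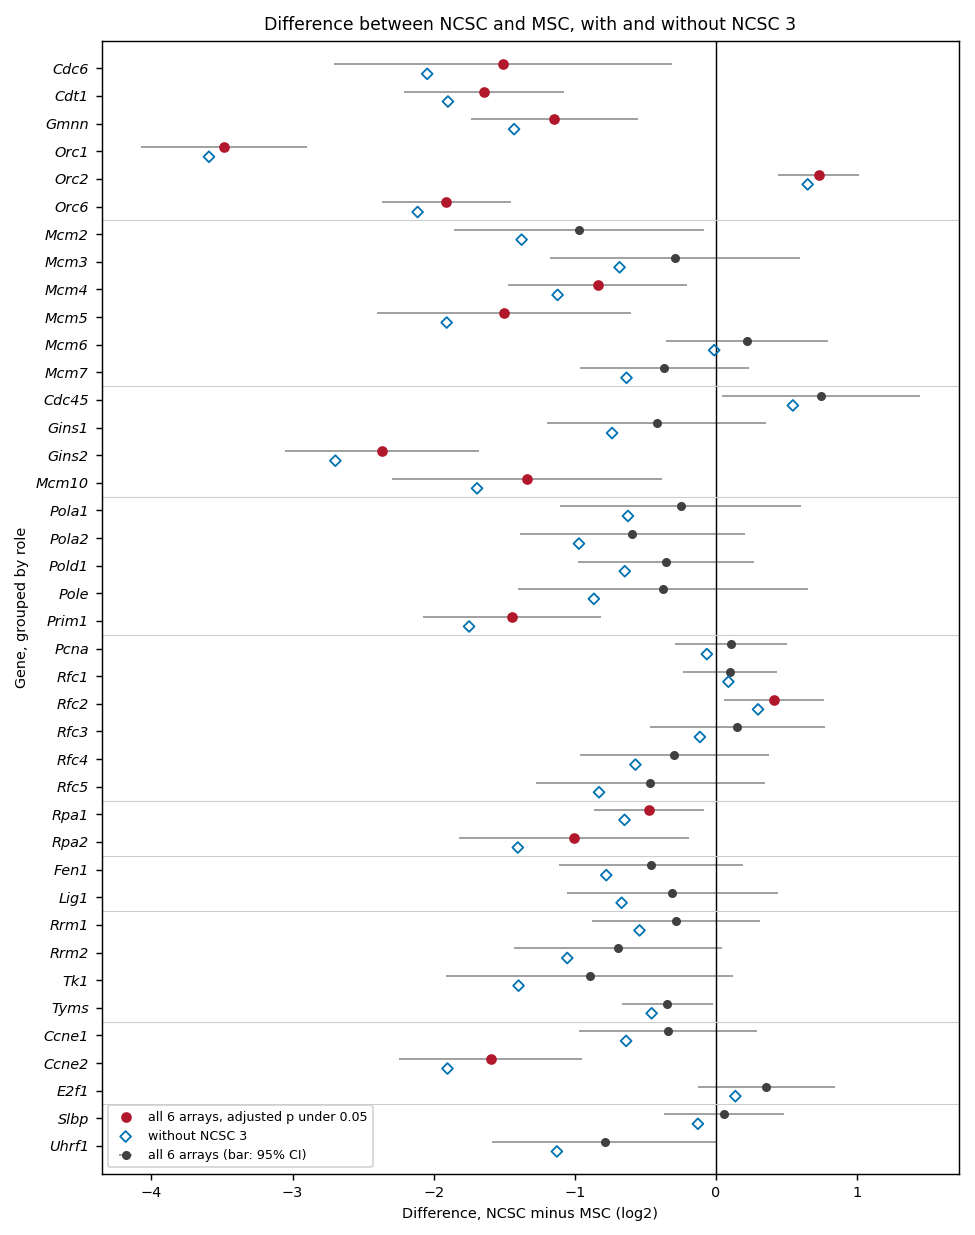
Difference between NCSC and MSC for each replication gene (log2, NCSC minus MSC), from all 6 arrays with the 95% confidence interval (filled points, red where the adjusted p is under 0.05) and without NCSC 3 (open blue diamonds). Leaving out NCSC 3 moves every point to the left, that of Rfc1 least, and 31 genes are then called lower.

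Among the genes of origin recognition and licensing, 5 of 6 were lower and 1 was higher in NCSC, with a median difference of -1.58. Orc1, the subunit of the origin recognition complex whose supply follows the cell cycle, had log2 intensities of 3.73, 3.90 and 4.13 on the NCSC arrays, against 7.61, 6.88 and 7.73 on the MSC arrays. The NCSC values lie around the limit for a value above background, which 1 of 3 passed, and the groups were far apart. Orc1 had a difference of -3.49 (SE 0.243, adjusted p = 6.26e-05, from the limma fit). With NCSC values below that limit raised to it, Orc1 was 10.3-fold lower in NCSC, which is an estimate and not a lower bound. Orc6, another subunit, had 9.63, 9.78 and 10.32 in NCSC, against 11.78, 11.75 and 11.93 in MSC, a difference of -1.91 (SE 0.187, adjusted p = 0.00025). NCSC 3 was the highest NCSC array for both, yet it stayed below every MSC array.

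Orc2, a core subunit present through the cycle, went the other way. It had 9.94, 9.96 and 10.18 in NCSC, against 9.39, 9.12 and 9.38 in MSC, a difference of 0.73 (SE 0.117, adjusted p = 0.00217). Its 3 kept probe sets were all called higher, the other two with differences of 0.54 and 0.66, and the groups did not overlap. Orc2 lies on chromosome 1, where the median difference of tested genes was 0.47, and with the median of each chromosome removed its difference was 0.22 (adjusted p = 0.188).

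Cdt1, which brings the MCM ring to origins, had 10.51, 10.55 and 11.29 in NCSC, against 12.57, 12.21 and 12.50 in MSC, a difference of -1.65 (SE 0.233, adjusted p = 0.00124). Its second probe set differed by -1.97. Gmnn, the inhibitor of Cdt1, had 9.61, 9.80 and 10.56 in NCSC, against 11.16, 11.11 and 11.13 in MSC, a difference of -1.15 (SE 0.244, adjusted p = 0.00696). For both genes the NCSC arrays lay below all MSC arrays, and both were called lower. With chromosome medians removed, Gmnn was no longer called (difference -0.30, adjusted p = 0.30), and Cdt1 differed by -0.67 (adjusted p = 0.0474). Cdc6, the partner of Cdt1 in loading, had 8.22, 8.36 and 9.90 in NCSC, against 10.70, 9.80 and 10.51 in MSC, a difference of -1.51 (SE 0.493, adjusted p = 0.0353). Here the groups overlapped, because NCSC 3 lay above MSC 2, and the departure of NCSC 3 from the other two, 1.61, was the largest among the 40 genes. Without NCSC 3 the difference of Cdc6 was -2.05 (adjusted p = 0.00215), and without NCSC 1, NCSC 2, MSC 1 or MSC 3 its adjusted p lay between 0.0984 and 0.112.

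Of the 6 subunits of the MCM helicase, the motor that unwinds DNA at the fork, 2 were lower in NCSC and 4 were not called. Mcm5 had 11.31, 11.36 and 12.55 in NCSC, against 13.44, 12.86 and 13.45 in MSC, a difference of -1.50 (SE 0.369, adjusted p = 0.0124). All NCSC arrays lay below all MSC arrays for Mcm5, with NCSC 3 close to MSC 2. Its next probe set differed by -2.02 and was called, and its dimmest one, with values of 3.79 to 5.29, differed by -0.62 and was not (adjusted p = 0.0939, from the limma fit over probe sets). Mcm5 lies on chromosome 8, where the median difference was -0.94, and its difference with chromosome medians removed was -0.53 (adjusted p = 0.252).

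Mcm4 had 12.02, 11.75 and 12.74 in NCSC, against 13.04, 12.81 and 13.17 in MSC, a difference of -0.84 (SE 0.261, adjusted p = 0.0302). The groups did not overlap, although NCSC 3 came close to MSC 2, and without NCSC 1, NCSC 2, MSC 1 or MSC 3 the adjusted p lay between 0.0825 and 0.0936. Its second probe set, on which NCSC 3 lay above MSC 2, was not called (difference -0.71, adjusted p = 0.0685).

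Mcm2 had 10.20, 10.39 and 11.52 in NCSC, against 11.63, 11.42 and 11.98 in MSC, with a difference of -0.97 that missed the threshold (95% interval -1.86 to -0.085, adjusted p = 0.0559). NCSC 3 lay within the MSC range and departed by 1.22 from NCSC 1 and NCSC 2. Without NCSC 3 the difference was -1.38 (adjusted p = 0.00187). Mcm3 had 11.35, 11.27 and 12.48 in NCSC, against 12.24, 11.58 and 12.16 in MSC, with NCSC 3 above and the other two NCSC arrays below every MSC array. Its difference was -0.29 (95% interval -1.18 to 0.59) with all arrays and -0.68 (adjusted p = 0.0387) without NCSC 3. Mcm7 followed the same order, with differences of -0.37 and, without NCSC 3, -0.63 (adjusted p = 0.00992). Mcm6 was the exception among the 6: it had 12.43, 12.41 and 13.12 in NCSC, against 12.63, 12.13 and 12.53 in MSC, and its difference was 0.22 with all arrays and -0.013 without NCSC 3, neither called. The 6 subunits, which form 1 complex, thus differed by amounts from -1.50 to 0.22, while NCSC 3 lay above the other NCSC arrays by 0.70 to 1.22 in each of them.

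Among the 4 genes of helicase activation, Gins2 and Mcm10 were lower in NCSC and Gins1 and Cdc45 were not called. Gins2, a GINS subunit, had 7.41, 7.68 and 8.53 in NCSC, against 10.30, 10.20 and 10.21 in MSC, a difference of -2.37 (SE 0.284, adjusted p = 0.000596), or 5.16-fold lower in NCSC. Its second probe set differed by -2.57. Both Gins2 probe sets kept NCSC 3 well below the MSC arrays. Gins1, of the same complex, had a difference of -0.42 (95% interval -1.19 to 0.35) and, without NCSC 3, -0.74 (adjusted p = 0.0354).

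Mcm10, which helps to turn the loaded ring into a moving helicase, had 7.14, 7.06 and 8.16 in NCSC, against 9.20, 8.15 and 9.03 in MSC, a difference of -1.34 (SE 0.393, adjusted p = 0.0243). NCSC 3 lay marginally above MSC 2, so the groups overlapped. Without NCSC 3 the difference was -1.69, and without NCSC 1, NCSC 2, MSC 1 or MSC 3 the adjusted p lay between 0.0778 and 0.0823. Cdc45, a part of the active helicase, had 8.41, 8.52 and 9.06 in NCSC, against 8.19, 7.35 and 8.21 in MSC. All NCSC arrays were above all MSC arrays, and the difference of 0.74 missed the threshold (95% interval 0.039 to 1.45, adjusted p = 0.063). Its other kept probe set had 4.39 on 5 of the 6 arrays, which may be the floor of that probe set.

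Of the 5 genes of the polymerases and primase, Prim1 alone was called. Prim1, the catalytic subunit of primase that makes the RNA start of each DNA strand, had 10.55, 10.75 and 11.56 in NCSC, against 12.38, 12.34 and 12.48 in MSC, a difference of -1.45 (SE 0.26, adjusted p = 0.00342). Both of its probe sets were called, and NCSC 3 stayed below every MSC array. Pola1 and Pola2, the polymerase subunits that hold primase, differed by -0.25 and -0.59 and were not called, with NCSC 3 above and within the MSC range. For Pola2 the arrays gave 8.69, 8.71 and 9.83 in NCSC, against 9.84, 9.43 and 9.74 in MSC.

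Pole, the catalytic subunit of the polymerase of the leading strand, had 8.31, 8.38 and 9.81 in NCSC, against 9.34, 8.87 and 9.42 in MSC. NCSC 1 and NCSC 2 were the lowest of the 6 arrays and NCSC 3 the highest, a departure of 1.47, so that the difference of -0.38 had a 95% interval of -1.41 to 0.65. Without NCSC 3 it was -0.87 (adjusted p = 0.00944). Pold1, the catalytic subunit of the lagging-strand polymerase, showed the same order at smaller size, with differences of -0.35 and, without NCSC 3, -0.65 (adjusted p = 0.00493).

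The clamp and its loader differed least between the cell types, with a median difference of 0.10 over 6 genes, 1 higher and 5 not called. Pcna, the sliding clamp that holds polymerases on DNA, had 14.21, 14.38 and 14.80 in NCSC, against 14.42, 14.27 and 14.39 in MSC, a difference of 0.10 (95% interval -0.29 to 0.50). Rfc1, the large subunit of the clamp loader, had 10.22, 10.19 and 10.24 in NCSC, against 10.24, 9.83 and 10.28 in MSC, a difference of 0.099 (95% interval -0.23 to 0.43). For Rfc1 the NCSC arrays were almost level, and the departure of NCSC 3, 0.035, was the smallest of the 40 genes.

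Rfc3, a small subunit of the loader, had 9.68, 9.84 and 10.56 in NCSC, against 9.96, 9.59 and 10.07 in MSC, with NCSC 3 above all and the other two within the MSC range. Its difference was 0.15 (95% interval -0.47 to 0.77). The signs of these small differences rested on single arrays, as Pcna and Rfc3 were at -0.065 and -0.11 without NCSC 3 and Rfc1 at -0.046 without MSC 2. Rfc2 had 10.61, 10.72 and 11.00 in NCSC, against 10.50, 10.16 and 10.46 in MSC, a difference of 0.41 (SE 0.145, adjusted p = 0.0461). The groups did not overlap, but the call ended without any 1 array other than NCSC 1, at adjusted p between 0.0643 and 0.112, and in the fit over probe sets (adjusted p = 0.0509). The other kept probe sets of Rfc2, both of a kind whose probes can match other transcripts, were not called. On neither was NCSC 1 above every MSC array, and on the dimmer one NCSC 1, MSC 1 and MSC 3 shared the value 6.91. Rfc4 and Rfc5 differed by -0.30 and -0.46 and were not called, and without NCSC 3 both were lower in NCSC, with differences of -0.57 and -0.83 (adjusted p = 0.0436 and 0.0123).

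Rpa1 and Rpa2 encode subunits of the protein that coats single-stranded DNA at the fork, and both were lower in NCSC. Rpa2 had 8.79, 8.91 and 10.05 in NCSC, against 10.39, 10.13 and 10.26 in MSC, a difference of -1.01 (SE 0.335, adjusted p = 0.0378). NCSC 3 stood 1.19 above the other two NCSC arrays and just under MSC 2. Rpa1 had 12.77, 12.70 and 13.25 in NCSC, against 13.40, 13.29 and 13.46 in MSC, a difference of -0.47 (SE 0.162, adjusted p = 0.0406). Both calls ended without any 1 array other than NCSC 3, at adjusted p between 0.0746 and 0.118 for Rpa2 and between 0.0642 and 0.123 for Rpa1, and the second probe set of Rpa1 was not called. Rpa2 lies on chromosome 4, with a median difference of -0.43, and with chromosome medians removed it was not called (difference -0.55, adjusted p = 0.191).

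Neither Fen1, which trims the flaps of Okazaki fragments, nor Lig1, which joins the fragments, was called, with differences of -0.46 (95% interval -1.11 to 0.19) and -0.31 (95% interval -1.06 to 0.44). In both genes NCSC 3 was above and the other two NCSC arrays below every MSC array. Without NCSC 3 they differed by -0.78 and -0.67 (adjusted p = 0.000973 and 0.00489).

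No gene of nucleotide supply was called with all arrays, and all 4 were lower in NCSC without NCSC 3. Tk1, the thymidine kinase that salvages thymidine in S phase, had 10.04, 10.02 and 11.54 in NCSC, against 11.50, 11.25 and 11.54 in MSC. NCSC 3 stood with the highest MSC array, just above it, while NCSC 1 and NCSC 2 were more than 2-fold below all MSC arrays, and the difference of -0.90 had a 95% interval of -1.91 to 0.12. Without NCSC 3 it was -1.40 (SE 0.109, adjusted p = 0.000281). Rrm1 and Rrm2, the subunits of ribonucleotide reductase, differed by -0.28 and -0.69. The brightest probe set of Rrm2 was not called (adjusted p = 0.088), whereas the other two were, at -1.06 and -1.05. Tyms, the thymidylate synthase, was read here from dim single-gene probe sets with no value above 5.95, and differed by -0.34 (adjusted p = 0.061), with NCSC 3 level with MSC 2.

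Of the S-phase entry genes, Ccne2 was lower and Ccne1 and E2f1 were not called. Ccne2, the cyclin E2 that activates Cdk2, had 9.02, 9.31 and 10.09 in NCSC, against 11.08, 11.02 and 11.12 in MSC, a difference of -1.60 (SE 0.266, adjusted p = 0.00249). The groups were well apart. Ccne1, its paralog, differed by -0.34 with all arrays and by -0.64 without NCSC 3 (adjusted p = 0.00434). E2f1, an activating E2F factor, had 9.21, 9.19 and 9.86 in NCSC, against 9.20, 8.97 and 9.02 in MSC, a difference of 0.36 (95% interval -0.12 to 0.84). NCSC 3 stood clear above the MSC arrays for E2f1, while NCSC 1 and NCSC 2 lay level with MSC 1.

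Slbp, which binds the stem-loop of replication-dependent histone mRNA, had 12.63, 12.62 and 13.18 in NCSC, against 12.85, 12.61 and 12.81 in MSC, a difference of 0.057 (95% interval -0.37 to 0.48). It was the smallest difference among the 40 genes, and its sign turned without NCSC 3 (-0.13) or MSC 2 (-0.015). Its dim second probe set gave -0.63 and was not called. Uhrf1, which recruits the methyltransferase that copies DNA methylation, differed by -0.79 (95% interval -1.59 to 0.0082, adjusted p = 0.0759) and by -1.13 without NCSC 3 (adjusted p = 0.00687).

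NCSC 3 held the same position among the NCSC arrays in all of the 40 genes. It was above both other NCSC arrays in 40 of 40, against 38.2% of tested genes, and in 73 of the 75 kept probe sets, against 38% of all probe sets tested. Its departure from the mean of NCSC 1 and NCSC 2 had a median of 0.89 on the log2 scale, or 1.85-fold, beside -0.016 for all tested genes, and ran from 0.035 for Rfc1 to 1.61 for Cdc6. It exceeded 2-fold in 14 of the 40 genes, against 2.89% of tested genes, and in no gene was it more than 2-fold below, against 1.7%. The 8 largest departures were 1.61 for Cdc6, 1.51 for Tk1, 1.47 for Pole, 1.22 for Mcm2 and for Mcm5, 1.19 for Rpa2, 1.17 for Mcm3 and 1.13 for Pola2. With 1 array set against 2, these departures allow no test.

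By role, the median departure of NCSC 3 was highest for the polymerases and primase, at 1.12, and lowest for the clamp and clamp loader, at 0.65. It was 0.69 for origin recognition and licensing, where Orc2 and Orc1 had 0.24 and 0.32, and between 0.79 and 1.01 for the other roles. Genes with and without an E2F word in the promoter had similar departures, with a median of 0.91 for the 8 with a match and 0.88 for the 25 without. Their median differences between NCSC and MSC were -0.58 with a match and -0.35 without. A part of E2F factors in either measure was not tested.

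**Figure D3:**
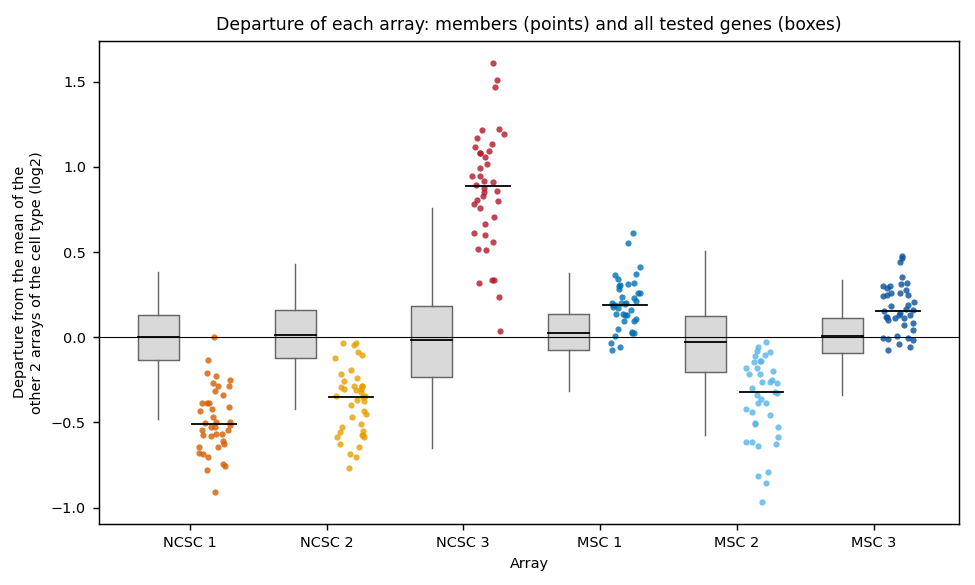
Departure of each array from the mean of the other 2 arrays of its cell type (log2) for the 40 replication genes (points, with a bar at the median) and for all tested genes (boxes from the 25th to the 75th percentile with the median, and lines to the 5th and 95th). The replication genes of NCSC 3 all lie above 0, with a median of 0.89, those of MSC 2 all lie below 0, with a median of -0.32, and the boxes of all tested genes stay centred near 0.

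Among MSC arrays, MSC 2 stood apart in the opposite direction and by less. It was below both other MSC arrays in 40 of 40 genes, against 46.7% of tested genes, with a median departure of -0.32, or 1.25-fold lower. The departures ran from -0.96 for Mcm10 to -0.030 for Gmnn, and none passed 2-fold, where 1.23% of tested genes did so downward and 1.27% upward. Both patterns held at once in 40 of 40 genes, against 20.8% of tested genes. The other arrays had median departures of -0.51 for NCSC 1, -0.35 for NCSC 2, 0.19 for MSC 1 and 0.16 for MSC 3, which follow in part from the arrays they are set against. None of the 40 genes departed by over 2-fold on these 4 arrays. Among tested genes 0.429% did so upward and 0.486% downward on NCSC 1, 0.552% and 0.276% on NCSC 2, 0.352% and 0.362% on MSC 1, and 0.276% and 0.514% on MSC 3.

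Set against the MSC arrays, NCSC 1 and NCSC 2 were both below all 3 in 31 of the 40 genes, against 37.9% of tested genes, and both above all 3 in 3 genes, Orc2, Rfc2 and Cdc45, against 44.3%. NCSC 3 was above all 3 MSC arrays in 20 genes, against 47.3% of tested genes, within their range in 9, against 14.2%, and below them in 11, against 38.5%. These 11 were Orc1, Orc6, Cdt1, Gmnn, Gins2, Mcm4, Mcm5, Prim1, Rpa1, Rpa2 and Ccne2. They are also the genes in which, on the brightest probe set, all 3 NCSC arrays lay below all 3 MSC arrays, against 32% of tested genes. On the other kept probe set of Mcm4 (12.59 on NCSC 3, 12.36 on MSC 2) and of Rpa1 (12.33 and 12.24), NCSC 3 lay above MSC 2, so the groups overlapped there. All 3 NCSC arrays lay above all 3 MSC arrays in the 3 genes Orc2, Rfc2 and Cdc45, against 39.2%, and the groups overlapped in 26, against 28.8%. The median of NCSC 3 minus the MSC mean was 0.16 over the 40 genes, while that of NCSC 1 and NCSC 2 was -0.76.

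Measures of array quality and of other cells beside NCSC 3 were as follows. The neural crest markers had a median departure of -0.22 on NCSC 3, with Ngfr at 0.90 and Erbb3 at -0.76, and the macrophage and blood cell list summed to 849, 975 and 930.5 on NCSC 1, 2 and 3. The housekeeping list had a median departure of -0.030, with 9 genes tested, 2 higher (Sdha, B2m), 1 lower (Hprt) and 6 not called in NCSC. The 3' minus 5' signal of Actb, a measure of RNA integrity, was 0.39, 0.41 and 0.52 in NCSC, against 0.49, 0.45 and 0.50 in MSC. That of Gapdh was -0.153, -0.127 and -0.062 in NCSC, against -0.101, -0.106 and -0.099 in MSC. NCSC 3 was the highest array in both measures. The bacterial poly-A spike-in controls averaged 9.79, 10.61 and 9.66 in NCSC, against 10.85, 10.20 and 10.75 in MSC, so NCSC 3 had the lowest mean of its group and MSC 2 the lowest of its own. The part of spike-in level, RNA quality and other cells in the departures was not tested. With quantile normalization, or with each array centred on the median of the tested genes, NCSC 3 still lay above both other NCSC arrays in 40 of 40 genes.

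Other genes of the cell cycle were compared in 7 lists, described by their counts and medians. Beside them stand 29.1% of all tested genes called lower, 35% called higher and 38.2% with NCSC 3 above both other NCSC arrays. Of 32 further genes of the replication fork and origins, 13 were lower, 19 were not called and none was higher in NCSC, with a median difference of -0.49. The largest called differences were those of Clspn, an adaptor of the replication checkpoint, at -1.70, Gins4, a GINS subunit, at -1.53, and Dna2, a nuclease and helicase of Okazaki fragments, at -1.52. NCSC 3 was above both other NCSC arrays in 27 of the 32, with a median departure of 0.66, so this list, chosen beside the 40, ran the same way with 5 exceptions.

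Of 9 tested genes of chromatin assembly at the fork, 3 were lower and 6 not called, with a median difference of -0.58 and a median departure of NCSC 3 of 0.71. The 3 were the histone chaperones Nasp (-1.24) and Chaf1b (-1.20) and the remodeller Hells (-1.09). Of 13 tested genes of nucleotide synthesis, 3 were lower and 10 not called, with medians of -0.29 and 0.44. They were Ctps, the CTP synthase, at -1.50, Samhd1, which breaks down dNTPs, at -1.10, and Shmt1, of the folate cycle, at -0.93. The lower genes thus include an enzyme that consumes nucleotides beside enzymes that make them.

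Among 13 tested genes of the E2F and RB family, 4 were lower, 2 higher and 7 not called, with a median difference of 0.12. The repressor E2f7 was lower, at -2.09, as was Tfdp1, the partner of E2F factors, at -1.58, while the pocket protein Rbl1 was higher, at 1.20. Of 16 tested G1 cyclins, kinases and inhibitors, 7 were lower, 4 higher and 5 not called, with a median difference of -0.27. The cyclins Ccnd2 and Ccnd3 were lower, at -1.64 and -1.47, as was Skp2, which marks the inhibitor p27 for destruction, at -1.22. The median departure of NCSC 3 was 0.48 in the E2F and RB family and 0.20 in the G1 list, where MSC 2 had 0.069.

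The mitosis list was the only one of the 7 in which NCSC 3 was above both other NCSC arrays in every tested gene. Of 29 tested, 7 were lower, 22 were not called and none was higher, with a median difference of -0.53. The count of lower genes is below the 29.1% of all tested genes. The departure of NCSC 3 had a median of 1.02 and passed 2-fold in 17 of them, against 2.89% of tested genes. MSC 2 was below both other MSC arrays in 28 of 29, against 46.7%. The largest called differences were those of Foxm1, a transcription factor of mitotic genes, at -1.45, Mad2l1, of the spindle checkpoint, at -1.29, and Kif20a, a kinesin of cell division, at -1.28. In the promoters of the mitosis list the E2F words were present in 1 of 25 genes (4%), TTTGAA in 8 (32%) and CCAAT in 19 (76%). Of 15 tested genes of the replication checkpoint and repair, 2 were lower, 2 higher and 11 not called, with a median difference of -0.31 and a median departure of NCSC 3 of 0.88. The kinase Chek1 was lower, at -1.80, and Wee1, which restrains entry into mitosis, and the clamp subunit Hus1 were higher, at 0.66 and 0.46.

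**Figure D4:**
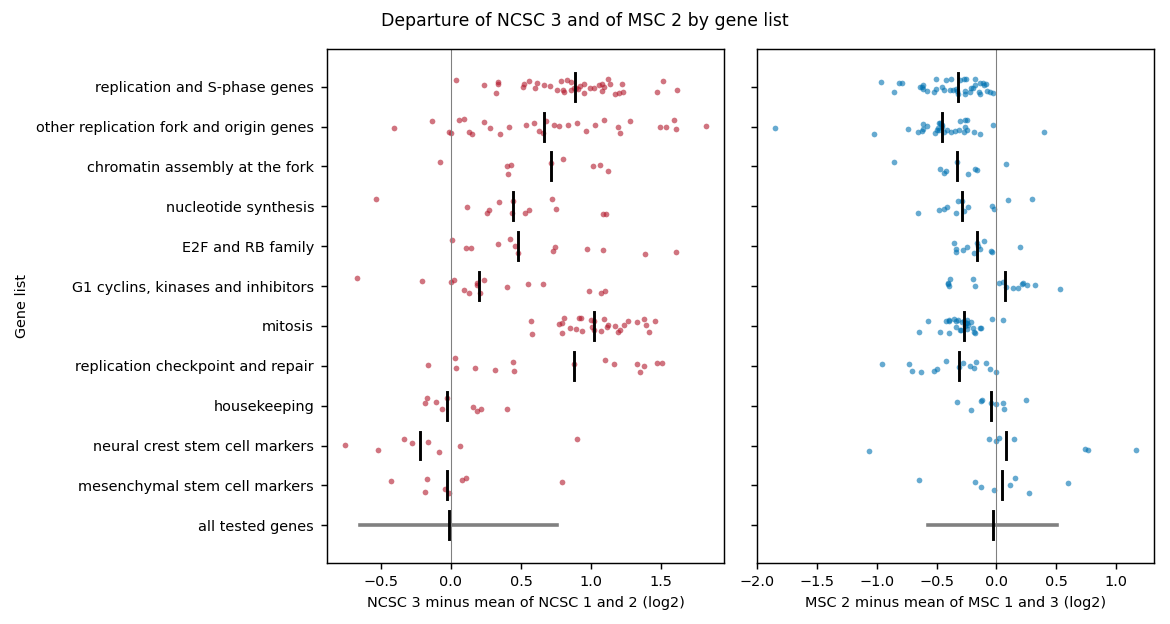
Departure of NCSC 3 from the mean of NCSC 1 and 2 (left) and of MSC 2 from the mean of MSC 1 and 3 (right), on the log2 scale, for each tested gene of each list (points) with the median (black bar), and for all tested genes the median and the 5th to 95th percentiles (grey line). The medians for NCSC 3 are 0.89 in the replication genes and 1.02 in the mitosis list, against -0.030 in the housekeeping list.

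The replication genes were also set against the other genes of their chromosomes. On 5 chromosomes, picked after their values were seen, the median difference of tested genes was below -0.3: it was -0.94 on chromosome 8, -0.65 on chromosome 13, -0.43 on chromosome 4, -0.34 on chromosome 10 and -0.32 on chromosome 6. They hold 10 of the 40 genes, of which 9 were lower and 1, Mcm2, was not called, with a median of -1.55, and 59.6% of all tested genes there were lower. The other 15 chromosomes hold 30 of the genes, of which 4 were lower (Mcm4, Mcm10, Cdc6 and Rpa1), 2 higher and 24 not called, with a median of -0.34, and 18.8% of all tested genes there were lower. On chromosome 8, where 79.1% of tested genes were lower, all 4 replication genes were lower: Mcm5, Cdt1, Orc6 and Gins2. The 9 lower genes of the 5 chromosomes are 9 of the 11 in which all NCSC arrays lay below all MSC arrays. The median departure of NCSC 3 was 0.91 for the 10 genes and 0.86 for the 30.

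**Figure D5:**
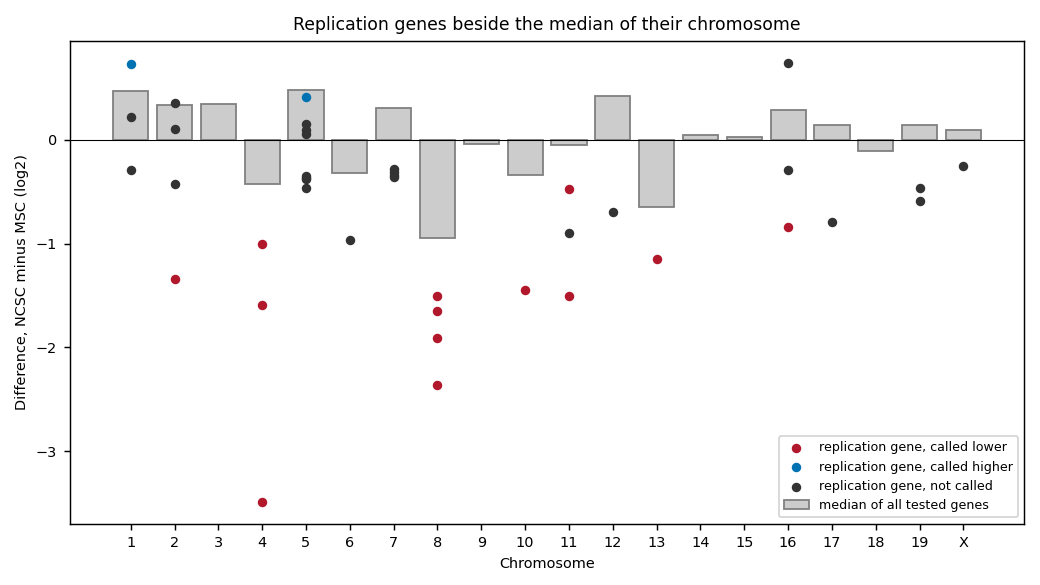
Difference between NCSC and MSC (log2, NCSC minus MSC) of each replication gene (points, red where called lower, blue where called higher) by chromosome, with the median of all tested genes of that chromosome (grey bars). The 4 genes on chromosome 8 lie below its median of -0.94, and the 2 genes called higher lie on chromosomes 1 and 5, whose medians are 0.47 and 0.48.

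With the median of each chromosome removed on each array, 17 of the 40 genes were lower and none was higher in NCSC, where 29.2% of tested genes were lower and 29.5% higher in the same fit, with a median difference of -0.70. Orc1, Gins2, Orc6, Cdt1, Ccne2, Prim1, Cdc6, Mcm10, Mcm4 and Rpa1 remained lower, at differences of -3.03, -1.39, -0.94, -0.67, -1.14, -0.99, -1.41, -1.75, -1.02 and -0.38. Mcm5, Gmnn and Rpa2 were no longer called, and Rfc1, Mcm7, Rfc5, Rrm2, Tyms, Slbp and Uhrf1 were then called lower. The difference of Rfc2 was then -0.16 in place of 0.41. What sets the chromosome medians apart was not tested, and clones and cell types cannot be told apart here. Of the 15 called genes, Gins2 and Orc6 kept their call under all alternatives run and Orc1 under all in which it was tested, and leaving out NCSC 3 alone kept 14 of the 15.

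The probe sets of a gene mostly told the same. Of the 75 kept probe sets, 20 were called lower, 3 higher and 52 not, where 60.1% of all probe sets tested were called, 27.2% lower and 33% higher. Among the 26 genes with several kept probe sets, all of a gene's probe sets had the same sign in 24, and the exceptions were Cdc45 and Slbp. The other 14 genes rest on 1 probe set each. The 2 probe sets in which NCSC 3 was not above both other NCSC arrays were the second ones of Cdc45 and Tyms, both dim. Both were ties: the NCSC arrays all had 4.39 for Cdc45, and NCSC 1 and NCSC 3 both had 5.10 for Tyms.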

How the data were processed

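RNA of NCSC and MSC cultures was hybridised to 3 Affymetrix arrays of each cell type after 3' amplification, per the labels' protocols. The authors deposited linear intensity values of 45101 probe sets, made with GCRMA per the submitters' processing notes, whose version is not given in the sources used here. These were converted to log2. Of the probe sets, 34945 name 1 gene, 932 several and 9160 none in the platform annotation, 64 are controls, and 34741 were matched to RefSeq symbols. Probe sets above 4 on the log2 scale on at least 3 of 6 arrays were kept (18640), and the brightest kept probe set stood for each gene.

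NCSC were compared with MSC by limma 3.58.1 (R 4.3.3), with Benjamini-Hochberg adjustment over all 10501 genes, or over all kept probe sets, a call at an adjusted p under 0.05, and 95% intervals. A call of this test is meant by "lower" and "higher". A departure is an array's log2 value minus the mean of the other two of its cell type, and 1 is 2-fold. For 4 members the brightest probe set can match several transcripts of a family (Mcm2, Mcm3, Mcm7, Gins2), and for 6 it can hold probes that match other genes (Mcm4, Mcm5, Pold1, Rrm2, Fen1, Ccne1). Another probe set of Tyms, shared with a pseudogene, was not used.

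The members and lists were chosen with earlier results of these data known. Values on every array are given for members called at 2-fold or more, the 8 with the largest departure of NCSC 3, the 4 with the smallest difference, and Orc2, Rfc2, Mcm4, Rpa1 and Cdc45. Mcm6 and E2f1 were added after their values were seen. For lists, up to 3 called genes with the largest differences are named. Replicate numbers were not taken to pair the arrays, as the labels state no pairing. Deviations of same-numbered arrays correlated at -0.098, 0.062 and 0.073, and those of differently numbered arrays at -0.11 to 0.11. These values cannot decide whether the arrays are paired. The precision is limited by the 3 arrays per group. The scripts were tested on simulated data, and 20 other settings chosen at the outset and 1 chosen after seeing the data were run. Python 3.11.15, pandas 2.3.3 and matplotlib 3.10.9 made tables and figures.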

Additional observations from a re-analysis of the deposited data

How the results depend on the processing

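The number of replication genes called lower in NCSC, 13, depended on the arrays used more than on the scaling. It was 7 with no filter on low values, 31 with array weights, 3 when tested against a difference of 2-fold, 32 without NCSC 3 and MSC 2 together, and 8 to 31 when each array was left out in turn. Removing chromosome medians and leaving out NCSC 3 together, an alternative chosen after seeing the data, gave 37. For the 75 probe sets, the count of 20 became 10, 56, 4, 57, 10 to 51 and 69 under the same settings. The 2 genes called higher became 1 with no filter, the mean of the probe sets, the lowest probe set, quantile normalization or median centring, 0 with chromosome medians removed (with or without NCSC 3) or the 2-fold test, and 1 to 2 when arrays were left out. The 3 probe sets called higher became 1 with no filter, 0 with chromosome medians removed (with or without NCSC 3) or the 2-fold test, and 1 to 2 when arrays were left out. The median difference, -0.44, was -0.92 without NCSC 3 and MSC 2 and -1.03 with chromosome medians removed and NCSC 3 left out. The 2-fold test called 1758 genes and 2854 probe sets in all. With a limit of 1.5-fold, 32 genes departed upward on NCSC 3 and 8 downward on MSC 2, where the lowest probe set gave 1 at 2-fold. With the replicate number as a block, 15 replication genes were lower and 2 higher, which rests on no established pairing.

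Of the small positive differences, several turned, and the cause was not tested. With chromosome medians removed, Mcm6 was at -0.29, Pcna at -0.31, Rfc1 at -0.47, Rfc2 at -0.16, Rfc3 at -0.42, E2f1 at -0.055 and Slbp at -0.51, and with NCSC 3 left out as well at -0.55, -0.51, -0.46, -0.25, -0.66, -0.31 and -0.68. With array weights, Mcm6 was at -0.090, Pcna at -0.084, Rfc1 at -0.029, Rfc3 at -0.20 and Slbp at -0.15, and without NCSC 3 and MSC 2 at -0.17, -0.11, -0.058, -0.25 and -0.20. With each array left out in turn, Mcm6 lay between -0.013 and 0.34, Pcna between -0.065 and 0.23, Rfc3 between -0.11 and 0.32 and Slbp between -0.13 and 0.15, with the lowest value without NCSC 3, and Rfc1 between -0.046 and 0.18, with the lowest without MSC 2, where Slbp was at -0.015. The lowest probe set gave -0.12 for Cdc45 and -0.63 for Slbp, and the mean of probe sets -0.29 for Slbp.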
